A study of Mus musculus with 9 samples.

Results

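The genes described here are the amino acid transporters of the plasma membrane and their closest relatives, chosen as the protein-coding genes whose symbols place them in the solute carrier families Slc1a, Slc3a, Slc6a, Slc7a, Slc36a, Slc38a and Slc43a, except for 1 Slc7a gene that the rule leaves out. The rule found 63 of the 22046 protein-coding genes, and of the 54532 genes measured in all. It goes by family name, so the set also holds carriers of creatine, monoamines and purine bases, 2 Slc38 proteins of the lysosome, and Slc7a6os, which is no transporter and has its name from its neighbour Slc7a6.

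All libraries were made from poly(A) RNA of livers of male wild-type C57BL/6J mice. In 3 of them the mice ate CDAA-HFD, a high-fat diet without choline in which free amino acids replace protein, and received the compound 326E at 30 mg/kg for 6 weeks. In another 3 the mice ate CDAA-HFD and received vehicle, and in the last 3 they ate normal chow and received vehicle. These are called 326E, vehicle and chow livers. The series asks how 326E acts in diet-induced steatohepatitis, and PPARα and ACLY (ATP citrate lyase) are the targets named in its title. The titles of all samples begin with MCD, often short for a diet without methionine and choline, whereas the protocol names CDAA-HFD and chow, and the protocol was followed. The labels give no age and no length of time on the diet.

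Amino acids cross cell membranes through carrier proteins. Secondary active carriers, found among Slc1, Slc6, Slc36 and Slc38, use sodium, chloride, potassium or proton gradients to concentrate their substrates. Heteromeric exchangers instead pair a heavy chain (Slc3) with a light chain (Slc7) and exchange amino acids. In the liver, hepatocytes take up alanine, glutamine and arginine from portal blood for glucose and urea synthesis, and the few hepatocytes around the central vein take up glutamate and ammonium and release glutamine. Several of these carriers are also known as genes that cells switch on when amino acids run short, through the factor ATF4.

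Assigned reads per library ran from 13275888 to 17058316. Values are the deposited FPKM (fragments per kilobase of gene, scaled to a library size). In a gene of 2 kb, 1 read equals 0.0246 to 0.0455 FPKM, so that reads limit the precision of the lowest genes. The library size used was 0.828 to 0.86 of the assigned reads in chow libraries and 1.007 to 1.192 in CDAA-HFD libraries. Against scaling to total assigned reads, the deposited FPKM are thus higher in chow livers and lower in the others. Group values are means ± SD of 3 libraries. Fold changes are given on the log2(FPKM+1) scale ± standard error, from limma over all 13737 tested genes (0.5 FPKM or more in 3 or more libraries), and they understate the change of genes with low FPKM. A gene was called at a Benjamini-Hochberg adjusted p under 0.05. Whether each library stands for its own mouse is not in the labels, and if it does not, p-values measure a spread that may be technical. In bulk tissue, fewer cells of a type and less RNA per cell cannot be told apart.

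Several libraries stood apart. The summed FPKM of 5 pancreas genes was 833 in 326E replicate 1 and 6002 in chow replicate 3, against 2.89 to 21 in the other libraries. A list of immediate early genes, put together after values were seen, had medians over the chow mean of 0.86, 0.62 and 0.48 log2 units in 326E livers and of 2.89, 1.01 and 3.90 in vehicle livers. Hepatocyte markers were measured in every library, with summed FPKM of 26319 to 37574 in 326E, 28671 to 43532 in vehicle and 41928 to 49119 in chow livers. The 8 macrophage markers summed to 862, 502 and 571 FPKM in 326E livers, to 892, 1335 and 1331 FPKM in vehicle livers and to 179, 197 and 187 FPKM in chow livers. Markers of stellate cells and myofibroblasts summed to 129 to 167 FPKM in 326E, 172 to 223 FPKM in vehicle and 61.5 to 74.7 FPKM in chow livers. Cholangiocyte markers summed to 80.6 to 140 FPKM, 113 to 328 FPKM and 31.7 to 50.8 FPKM in the same groups. The part of any of these in the results was not tested.

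Of the 63 genes, 31 were tested and 32 lay under the filter. Of those tested, Slc7a1 and Slc7a6 reached 0.5 FPKM in vehicle livers alone. They were thus tested only through the group in which they are high, and their calls are descriptions. Slc38a1 reached 0.5 FPKM in 3 vehicle libraries and 1 326E library, so it too passed the filter only through vehicle livers. Its calls are also descriptions, and it stays in the counts below that leave out Slc7a1 and Slc7a6. Slc38a4, Slc38a3 and Slc7a2, carriers of small neutral amino acids, of glutamine and of arginine, held most of the summed FPKM in every library. Their share of the summed FPKM of all members was 74.8% ± 2.29 in 326E livers, 65.1% ± 1.09 in vehicle livers and 76.6% ± 2.36 in chow livers. The sum itself was 849 ± 87.6 FPKM in 326E livers, 801 ± 129 FPKM in vehicle livers and 1196 ± 112 FPKM in chow livers. With total assigned reads the chow sums would be smaller and the others larger, so the gap between them depends on the scaling. A group mean of at least 10 FPKM was reached by 12 genes: these 3, Slc38a2, Slc38a10, Slc6a13, Slc6a12, Slc6a6, Slc3a1, Slc3a2, Slc1a2 and Slc43a3. Since FPKM is per length, these levels may be compared between genes, but only roughly. For 60 of the 63 genes the deposited length is that of all annotated exons merged, whether or not the liver uses them.

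**Figure D1:**
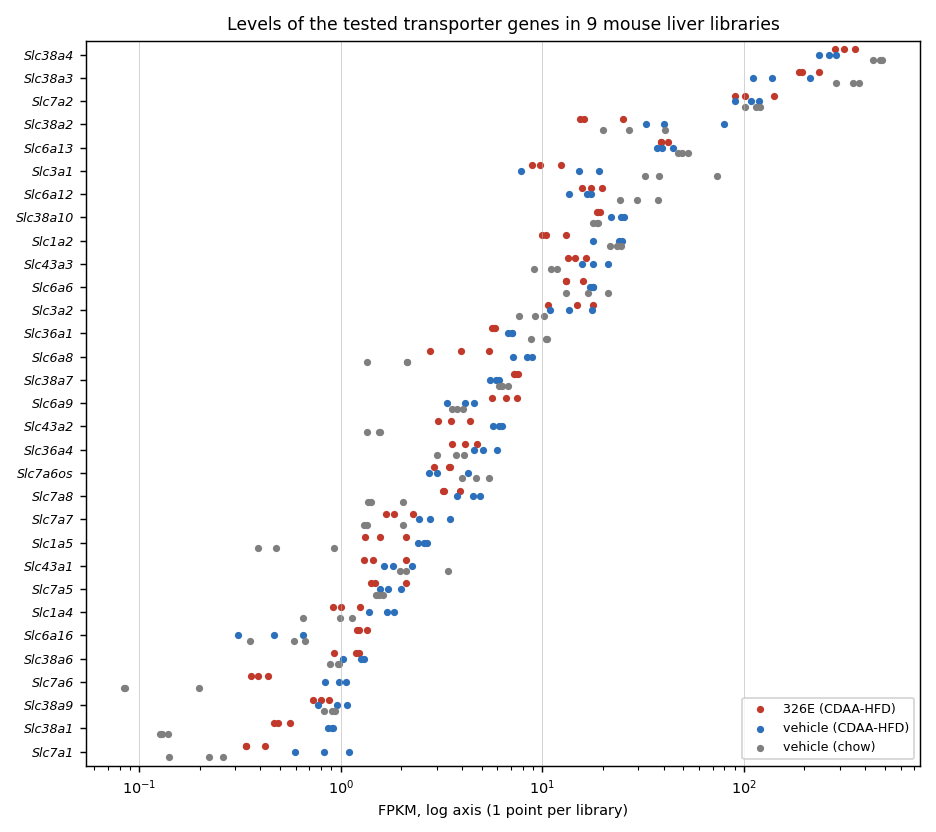
FPKM of the 31 tested transporter genes in each library, on a log axis, with 1 point per library and the genes ordered by level. Slc38a4, Slc38a3 and Slc7a2 lie above all others, and the chow points lie apart to the left for Slc7a6, Slc38a1, Slc43a2 and Slc6a8 and to the right for Slc3a1.

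For 326E against vehicle, 3 of the 31 genes were called higher and 7 lower, and 21 were not called. The background over all tested genes was 4.96% called higher and 6.5% called lower, against 9.68% and 22.6% of the members tested. The median log2 fold change was -0.27 over the members and -0.02 over all genes. Values of 326E and vehicle livers did not overlap for 16 members (51.6%), against 33% of all genes. The 16 and the median include Slc7a1, Slc7a6 and Slc38a1, which were tested only through vehicle livers, in which they are high. Without Slc7a1 and Slc7a6, 3 of 29 members (10.3%) were called higher and 6 (20.7%) lower. Leaving out every gene that reached the filter in a single group left 13577 genes, of which 4.88% were called higher and 6.27% lower. With values scaled to total assigned reads, 1 member was called higher and 7 lower, where 4.25% of all genes were called higher and 6.79% lower. Without 326E replicate 1 and chow replicate 3, the libraries with pancreas genes, 3 members were called, all lower (Slc1a2, Slc43a2 and Slc6a8), and calls over all genes fell to 805 (5.86%), against 1574. The 7 calls lost there kept their direction, with fold changes that moved by 0.01 to 0.12.

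For vehicle against chow, 12 genes were called higher and 6 lower, and 13 were not called. The background was 20.8% called higher and 20.8% called lower, against 38.7% and 19.4% of the members tested, so that the share called lower was close to that of all genes. The median was 0.11 over the members and -0.04 over all genes. When values were scaled to total assigned reads, which moved the median of all genes to 0.25, 16 members were called higher and 4 lower, where 36.9% of all genes were called higher and 7% lower. Without Slc7a1 and Slc7a6, 10 of 29 members (34.5%) were called higher and 6 (20.7%) lower. Of the 13577 genes left by the same rule, 20.4% were called higher and 20.7% lower.

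For 326E against chow, 9 genes were called higher, 6 lower and 16 neither, where the background was 14.4% called higher and 12.5% called lower, against 29% and 19.4% of the members tested. The medians were 0.10 over the members and -0.02 over all genes. Scaling to total assigned reads moved the median of all genes to 0.24 and gave 13 members higher and 3 lower, where 28.8% of all genes were called higher and 4.32% lower. Without Slc7a1 and Slc7a6, 8 of 29 members (27.6%) were called higher and 6 (20.7%) lower, against 14.3% and 12.3% of the 13577 genes left by the same rule. Without the libraries with pancreas genes, 5 members were called (Slc43a2 and Slc7a8 higher and Slc1a2, Slc3a1 and Slc36a1 lower). Calls over all genes fell to 1770, against 3688. The share called was then 16.1% of members and 12.9% of all genes, against 48.4% and 26.8% with all libraries. The 10 calls lost there kept their direction, with fold changes that moved by 0.02 to 0.33. The comparisons share libraries, and their values are set side by side below.

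**Figure D2:**
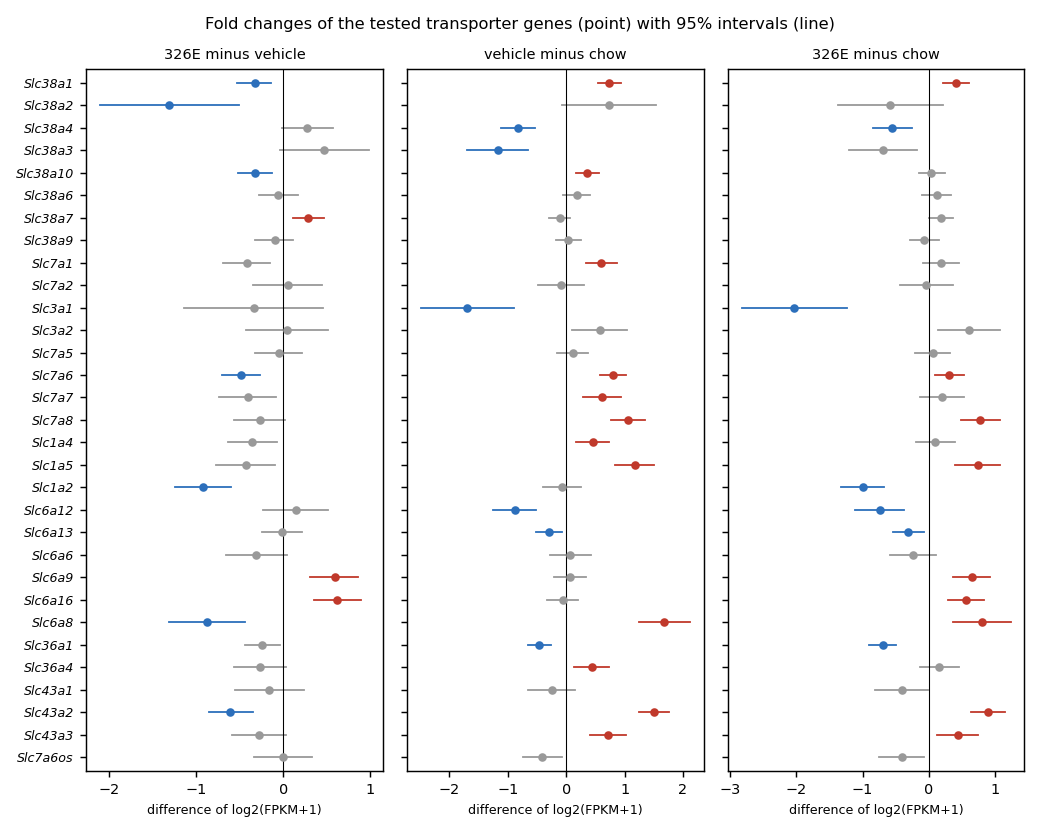
Log2 fold changes of the 31 tested genes in the 3 comparisons, grouped by role, as differences of log2(FPKM+1) with 95% intervals; red genes were called higher, blue genes lower and grey genes not called. The 326E minus vehicle panel holds 3 red and 7 blue points, and the vehicle minus chow panel 12 red and 6 blue points.

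The 23 genes called in any comparison include 5 that were higher in vehicle than in chow livers and lower in 326E than in vehicle livers: Slc38a1, Slc38a10, Slc43a2, Slc6a8 and Slc7a6. They are 16.1% of the members tested, against 5.61% of all genes. They are also 5 of the 12 members called higher in vehicle livers, against 26.9% of all genes so called. Slc38a1 and Slc7a6, among the 5, and Slc7a1, Slc38a1 and Slc7a6, among the 12, were tested only through vehicle livers, in which they are high. These shares therefore hold genes whose selection favours this pattern. The opposite pattern, lower in vehicle than in chow livers and higher in 326E than in vehicle livers, was found in 0 members and 3.19% of all genes. The mean of 326E livers lay between those of vehicle and chow livers for 15 of the 18 genes called for vehicle against chow, against 81.6% of the 5721 such genes in all. These counts use the same vehicle libraries in each comparison.

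Of the called genes with a promoter in the RefSeq table, the 4 with the largest changes in the comparisons that involve vehicle livers are shown, so that the sequence upstream of those changes can be read. They are up to 250 bases before the RefSeq start (GRCm38.p6, the build mm10), left off where the deposited gene begins. The bases just after the start were found in a transcript of the GENCODE vM21 annotation for Slc43a2, Slc38a2 and Slc7a8. For Slc3a1 they were not, although its RefSeq start is where the deposited gene begins. Slc3a1 lies on chr17:85028097-85028346 (plus strand), Slc43a2 on chr11:75531444-75531693 (plus), Slc38a2 on chr15:96699731-96699978 (minus) and Slc7a8 on chr14:54781947-54782136 (minus), each read 5′ to 3′ along its gene.
Slc3a1: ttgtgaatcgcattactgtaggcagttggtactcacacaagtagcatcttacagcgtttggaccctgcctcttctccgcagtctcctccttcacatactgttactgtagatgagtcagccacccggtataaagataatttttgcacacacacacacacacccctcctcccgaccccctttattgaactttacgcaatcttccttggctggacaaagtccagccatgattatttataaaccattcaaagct
Slc43a2: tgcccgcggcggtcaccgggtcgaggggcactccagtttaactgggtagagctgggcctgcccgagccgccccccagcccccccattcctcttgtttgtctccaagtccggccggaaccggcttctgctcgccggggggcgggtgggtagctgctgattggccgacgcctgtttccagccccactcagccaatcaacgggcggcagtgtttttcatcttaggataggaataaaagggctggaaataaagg
Slc38a2: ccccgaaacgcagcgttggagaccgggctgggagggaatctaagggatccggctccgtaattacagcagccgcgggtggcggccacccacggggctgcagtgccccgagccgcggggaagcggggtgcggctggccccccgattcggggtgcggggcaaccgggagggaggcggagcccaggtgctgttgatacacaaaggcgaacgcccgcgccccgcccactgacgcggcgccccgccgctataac
Slc7a8: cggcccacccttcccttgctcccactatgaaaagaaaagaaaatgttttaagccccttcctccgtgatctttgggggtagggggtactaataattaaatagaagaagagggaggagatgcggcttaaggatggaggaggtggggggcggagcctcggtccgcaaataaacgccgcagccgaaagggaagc
None of them holds TGATGNAA, the core of the ATF4 amino acid response element, or GGTCAAAGG, the core of a DR1 element of the kind that PPAR and RXR bind, so that no letter is in capitals. Both strands were searched. TGATGNAA occurs in 3.45% of the 32851 promoters in the table and in 3 of the 66 promoters found for members, those of Slc7a7 and Slc6a21. GGTCAAAGG occurs in 0.31% of all promoters and in 0 of those of members. Promoters were found for 45 of the 63 genes, and nothing about a factor follows from these letters or their absence.

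System A carriers (Slc38a1, Slc38a2 and Slc38a4) bring alanine and other small neutral amino acids into the cell with sodium. Slc38a4, the form typical of the adult liver (chr15:96994820-97055956), had 285, 314 and 355 FPKM in 326E livers, 264, 236 and 288 FPKM in vehicle livers and 474, 488 and 436 FPKM in chow livers. All chow values lay above all others, and the 326E and vehicle values overlapped. Slc38a4 fell in vehicle against chow livers by 0.83 ± 0.13 (limma adjusted p = 0.00108) and in 326E against chow livers by 0.56 ± 0.13 (adjusted p = 0.0137), and was not called for 326E against vehicle (0.27 ± 0.13, adjusted p = 0.21). The call for 326E against chow is lost without 326E replicate 1 (-0.48, adjusted p = 0.0531) and under both other scalings, where the fold change is -0.19 with total assigned reads and turns to 0.07 with quantile normalization. The fall in vehicle livers is -0.11 with quantile normalization (adjusted p = 0.441) and -0.43 with total assigned reads (adjusted p = 0.00849).

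Slc38a2 (chr15:96687392-96699730), the system A carrier known to be induced in cells short of amino acids, had 15.4, 16.1 and 25.3 FPKM in 326E livers, 40.3, 32.7 and 79.4 FPKM in vehicle livers and 20.1, 40.6 and 26.9 FPKM in chow livers. The 326E values lay below all vehicle values, and vehicle replicate 3 stood far above the other 2. It fell in 326E against vehicle livers by 1.31 ± 0.35 (adjusted p = 0.0462), the largest change of any member there. The call was lost without any 1 of 7 libraries (326E replicates 1, 2 and 3, vehicle replicates 1 and 3, chow replicates 1 and 3), with fold changes of -1.53 to -0.94 and adjusted p of 0.0502 to 0.135. Among vehicle livers, replicates 3 and 1 had the most Slc38a2 and the highest medians of the immediate early genes, 3.90 and 2.89. Chow replicate 2, with 40.6 FPKM of Slc38a2, had a median of 0.02. A link between the 2 was not tested. Neither comparison with chow was called, with 0.73 ± 0.35 for vehicle (adjusted p = 0.129) and -0.58 ± 0.35 for 326E (adjusted p = 0.26), although the first is called with total assigned reads (1.12, adjusted p = 0.0164).

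Slc38a1, the remaining system A carrier, known best from neurons, was at a low level throughout, with 0.561, 0.469 and 0.487 FPKM in 326E livers, 0.908, 0.862 and 0.913 FPKM in vehicle livers and 0.130, 0.139 and 0.127 FPKM in chow livers. The 3 groups did not overlap, with vehicle livers on top and chow livers lowest. The gene passed the filter only through vehicle livers, in which it is high, so its calls are descriptions. Slc38a1 rose in vehicle against chow livers by 0.74 ± 0.09 (adjusted p = 0.000207), a 6.78-fold ratio of mean FPKM, which is 0.49 with quantile normalization (adjusted p = 0.00264). Its rise in 326E against chow livers was 0.41 ± 0.09 (adjusted p = 0.00844, and 0.191 with quantile normalization), and it fell in 326E against vehicle livers by 0.33 ± 0.09 (adjusted p = 0.0405). That fall is not called when any 1 of the 9 libraries is left out, with fold changes of -0.36 to -0.31 and adjusted p of 0.0527 to 0.122.

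Slc38a3 (chr9:107650634-107669530), the system N carrier that moves glutamine, histidine and asparagine across the hepatocyte membrane, had 195, 189 and 236 FPKM in 326E livers, 138, 111 and 213 FPKM in vehicle livers and 347, 375 and 287 FPKM in chow livers. Chow values were the highest, and vehicle replicate 3 lay among the 326E values. It fell in vehicle against chow livers by 1.17 ± 0.23 (adjusted p = 0.00335), which shrinks to -0.57 under quantile normalization (adjusted p = 0.0383) and to -0.77 with total assigned reads (adjusted p = 0.00937). The values for 326E were -0.70 ± 0.23 against chow (adjusted p = 0.0509, with no overlap between groups) and 0.47 ± 0.23 against vehicle (adjusted p = 0.215), and neither was called. With quantile normalization the value for 326E against chow is -0.13 (adjusted p = 0.672). The other system N gene, Slc38a5, a glutamine and serine carrier of the pancreas and gut, had 37 reads (1.5 FPKM) in chow replicate 3, the library with the highest sum of pancreas genes, 1 read in the other chow libraries, 3 reads in all in 326E livers and 1 in vehicle livers.

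Among the remaining Slc38 genes, Slc38a10, whose substrates are less settled, had 19.4, 18.9 and 18.8 FPKM in 326E livers, 25.6, 24.7 and 21.9 FPKM in vehicle livers and 17.8, 18.7 and 18.9 FPKM in chow livers. Vehicle values lay above all others. Slc38a10 rose in vehicle against chow livers by 0.36 ± 0.09 (adjusted p = 0.00879, and 0.74 with total assigned reads) and fell in 326E against vehicle livers by 0.32 ± 0.09 (adjusted p = 0.0442). The fall is lost without any 1 of the libraries other than vehicle replicate 3 (-0.34 to -0.28, adjusted p of 0.0539 to 0.128), and with total assigned reads (adjusted p = 0.0834) or quantile normalization (adjusted p = 0.0502).

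Slc38a7, which exports glutamine and asparagine from lysosomes, had 7.29, 7.56 and 7.28 FPKM in 326E livers, 5.89, 6.14 and 5.48 FPKM in vehicle livers and 6.08, 6.35 and 6.76 FPKM in chow livers, so that 326E values were above all others. It rose in 326E against vehicle livers by 0.29 ± 0.08 (adjusted p = 0.046), a call that is lost when any 1 of the 9 libraries is left out (0.26 to 0.33, adjusted p of 0.0569 to 0.139) and with total assigned reads (0.27, adjusted p = 0.14). Slc38a9, the lysosomal arginine sensor upstream of the growth kinase mTORC1, averaged 0.799, 0.937 and 0.888 FPKM in 326E, vehicle and chow livers, and Slc38a6 1.12, 1.2 and 0.946 FPKM. Neither was called in any comparison, and Slc38a6 is called for vehicle against chow with total assigned reads (0.38, adjusted p = 0.0249).

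Of the carriers of arginine and lysine, Slc7a2, the liver form, was the one of the 3 most abundant members with no call, at 111 ± 26.9 FPKM in 326E, 106 ± 14.3 FPKM in vehicle and 112 ± 10.3 FPKM in chow livers. Its 95% intervals were -0.35 to 0.45 for 326E against vehicle and -0.49 to 0.31 for vehicle against chow, and it was not called. Slc7a1, the general cationic carrier that the adult liver holds little of, had 0.339, 0.341 and 0.421 FPKM in 326E livers, 0.827, 0.593 and 1.1 FPKM in vehicle livers and 0.222, 0.141 and 0.260 FPKM in chow livers. Vehicle values lay above all others and alone reached the filter. Slc7a1 rose in vehicle against chow livers by 0.60 ± 0.12 (adjusted p = 0.00361, a 4.04-fold ratio of means), which is 0.35 with quantile normalization (adjusted p = 0.0559). For 326E against vehicle it missed the threshold (-0.42 ± 0.12, adjusted p = 0.053), and with total assigned reads it is called (-0.46, adjusted p = 0.0353).

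Heavy chains carry their light chains to the membrane. Slc3a1, the heavy chain of the cystine and cationic amino acid exchanger of kidney and gut (chr17:85028347-85064243), had 12.4, 9.79 and 8.89 FPKM in 326E livers, 15.2, 7.89 and 19.1 FPKM in vehicle livers and 32.4, 74.1 and 38 FPKM in chow livers. All chow values were above all others, and chow replicate 2 stood far above the other 2. It fell in vehicle against chow livers by 1.69 ± 0.35 (adjusted p = 0.00465) and in 326E against chow livers by 2.03 ± 0.35 (adjusted p = 0.00341), the largest falls of any member, and was not called for 326E against vehicle (-0.34 ± 0.35, adjusted p = 0.575). Its light chain Slc7a9 had 22 reads in 326E replicate 1, 3 in vehicle livers and 0 in chow livers. Of the exon bases of Slc3a1, 26.5% overlap Prepl on the other strand, which also fell in vehicle against chow livers (-0.75, adjusted p = 0.00112), and since the strand setting of the counting is not given, reads of the 2 genes could be mixed there.

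Slc3a2 (CD98), the other heavy chain, averaged 14.5 ± 3.54 FPKM in 326E livers, 14 ± 3.37 FPKM in vehicle livers and 9.02 ± 1.28 FPKM in chow livers. Its values against chow were 0.57 ± 0.21 for vehicle (adjusted p = 0.0543) and 0.61 ± 0.21 for 326E (adjusted p = 0.0586), not called, with no overlap in the values of either. With total assigned reads both are called, at 0.93 (adjusted p = 0.00871) and 0.94 (adjusted p = 0.0116).

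The light chains that pair with Slc3a2 were at low levels, and 3 of the 4 tested rose in vehicle against chow livers, where 20.8% of all genes were called higher. Slc7a6, among the 3, was tested only through vehicle livers, in which it is high, so its rise there is a description. The sum of the light chains (Slc7a5 to Slc7a8) was 7.46 ± 0.585 FPKM in 326E, 10 ± 0.667 FPKM in vehicle and 4.84 ± 0.471 FPKM in chow livers. Slc7a8 (LAT2), an exchanger of neutral amino acids, had 3.92, 3.25 and 3.22 FPKM in 326E livers, 3.76, 4.52 and 4.92 FPKM in vehicle livers and 1.36, 1.42 and 2.04 FPKM in chow livers. Both CDAA-HFD groups lay above chow and overlapped each other. Slc7a8 rose against chow by 1.05 ± 0.13 in vehicle livers (adjusted p = 0.000292) and by 0.78 ± 0.13 in 326E livers (adjusted p = 0.00279), and the value for 326E against vehicle was -0.27 ± 0.13 (adjusted p = 0.211).

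Slc7a6 (y+LAT2), which trades arginine for glutamine and sodium, had 0.359, 0.436 and 0.387 FPKM in 326E livers, 1.06, 0.980 and 0.838 FPKM in vehicle livers and 0.0848, 0.0845 and 0.199 FPKM in chow livers. The 3 groups did not overlap. Slc7a6 rose in vehicle against chow livers by 0.80 ± 0.10 (adjusted p = 0.000257, a 7.8-fold ratio of means) and fell in 326E against vehicle livers by 0.49 ± 0.10 (adjusted p = 0.0157), a call lost without 326E replicate 3 (-0.49, adjusted p = 0.0502). It rose in 326E against chow livers by 0.31 ± 0.10 (adjusted p = 0.0413), which does not hold without any 1 of the libraries other than vehicle replicate 1 (0.29 to 0.36, adjusted p of 0.0509 to 0.12) and is 0.06 with quantile normalization (adjusted p = 0.694). Like Slc7a1, it passed the filter in vehicle livers alone.

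Slc7a7 (y+LAT1), the related exchanger of macrophages and gut, had 2.29, 1.67 and 1.84 FPKM in 326E livers, 2.45, 3.47 and 2.77 FPKM in vehicle livers and 1.31, 2.03 and 1.35 FPKM in chow livers. Vehicle values lay above all others, and 326E and chow values overlapped. Slc7a7 rose in vehicle against chow livers by 0.61 ± 0.15 (adjusted p = 0.0092), and was not called for 326E against vehicle (-0.41 ± 0.15, adjusted p = 0.105). The summed markers of macrophages, of stellate cells and myofibroblasts, and of cholangiocytes, given above, were all ordered in the same way over the group means. A link to any of them was not tested. Of the exon bases of Slc7a7, 7% overlap Oxa1l on the other strand, which fell in vehicle against chow livers (-0.54, adjusted p = 0.00652). Slc7a5 (LAT1), the carrier of large neutral amino acids in dividing cells, averaged 1.67, 1.76 and 1.56 FPKM in 326E, vehicle and chow livers and was not called, except for vehicle against chow with total assigned reads (0.35, adjusted p = 0.0292).

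The ASC carriers exchange alanine, serine, cysteine and, for Slc1a5, glutamine. Slc1a5 (ASCT2), a carrier that healthy liver holds little of, had 2.1, 1.57 and 1.32 FPKM in 326E livers, 2.42, 2.58 and 2.68 FPKM in vehicle livers and 0.928, 0.388 and 0.480 FPKM in chow livers. Vehicle values were highest and chow values lowest, with no overlap. It rose against chow by 1.17 ± 0.15 in vehicle livers (adjusted p = 0.000338) and by 0.74 ± 0.15 in 326E livers (adjusted p = 0.00689, and 0.0723 without the libraries with pancreas genes), and was not called for 326E against vehicle (-0.43 ± 0.15, adjusted p = 0.0965).

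Slc1a4 (ASCT1) had 1.25, 0.916 and 1 FPKM in 326E livers, 1.84, 1.38 and 1.69 FPKM in vehicle livers and 0.651, 1.14 and 0.997 FPKM in chow livers. Vehicle values lay above all others. Slc1a4 rose in vehicle against chow livers by 0.45 ± 0.13 (adjusted p = 0.0191), a call lost with quantile normalization (0.27, adjusted p = 0.128) and without vehicle replicate 1 or 3 or chow replicate 1 (0.35 to 0.44, adjusted p of 0.0536 to 0.065).

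Slc1a2 (GLT-1), the only one of 5 glutamate carriers above the filter, was the member with the lowest adjusted p between 326E and vehicle livers. It is known in the liver from the hepatocytes around the central vein, beside glutamine synthetase. Slc1a2 (chr2:102658659-102790784) had 9.97, 10.5 and 13.2 FPKM in 326E livers, 25, 17.9 and 24 FPKM in vehicle livers and 21.6, 23.5 and 24.7 FPKM in chow livers. The 326E values lay below all others, and vehicle and chow values overlapped. It fell in 326E against vehicle livers by 0.92 ± 0.15 (adjusted p = 0.0064) and in 326E against chow livers by 1.0 ± 0.15 (adjusted p = 0.00153), whereas vehicle against chow gave -0.07 ± 0.15 (adjusted p = 0.725). With total assigned reads the value for 326E against chow is -0.65 (adjusted p = 0.00271). The fall against vehicle was called in 21 of 22 alternatives, all but the one with a single vehicle library, with fold changes of -1.07 to -0.64. Without the libraries with pancreas genes it was -0.85 (adjusted p = 0.0379).

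Of 10 pericentral hepatocyte genes, a list chosen with earlier results known, 2 fell in 326E against vehicle livers and 8 were not called (median -0.01). These were Rhbg, an ammonium channel (-1.31, limma adjusted p = 0.00204), and Glul, glutamine synthetase (-0.63, adjusted p = 0.0495). Rhbg had 1.84, 0.857 and 1.22 FPKM in 326E livers, 4.58, 4.57 and 4.7 FPKM in vehicle livers and 1.72, 1.24 and 1.36 FPKM in chow livers. Its 326E and chow values overlapped, unlike those of Slc1a2. Glul had 185, 188 and 221 FPKM in 326E livers, 291, 248 and 394 FPKM in vehicle livers and 246, 278 and 240 FPKM in chow livers, so that 326E values lay below all others, as for Slc1a2. For vehicle against chow 1 of the 10 genes rose and 2 fell (median -0.27), with the largest changes in Cyp1a2 (-1.36) and Rhbg (1.21). For 326E against chow 2 fell, Oat (-1.53) and Cyp1a2 (-1.07).

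**Figure D3:**
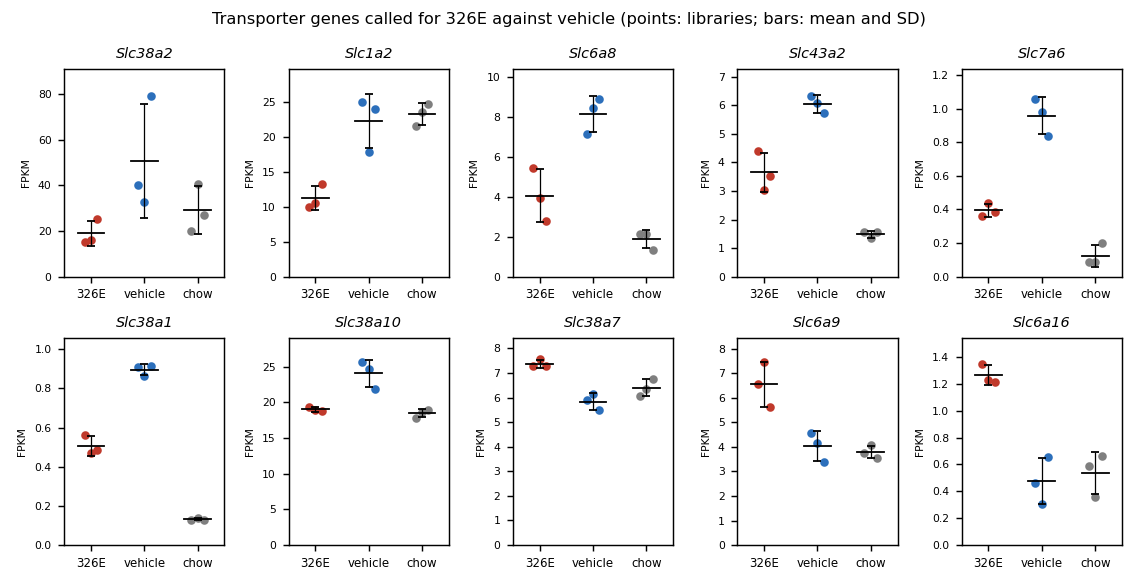
FPKM of the 10 transporter genes called for 326E against vehicle, in order of their fold change, with 1 point per library and bars for the mean and SD of 3 libraries. In each panel the 326E points lie wholly below or, for Slc38a7, Slc6a9 and Slc6a16, wholly above the vehicle points, and Slc38a2 has 1 vehicle library at 79.4 FPKM.

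In the Slc6 family of sodium- and chloride-coupled carriers, 2 of the 6 tested members fell in vehicle against chow livers (Slc6a12 and Slc6a13) and 1 rose (Slc6a8), where 20.8% of all genes were called in each direction. Slc6a12 (BGT1), the betaine and GABA carrier (chr6:121343076-121365775), had 15.7, 17.5 and 19.7 FPKM in 326E livers, 17.4, 13.6 and 16.6 FPKM in vehicle livers and 24.2, 37.5 and 29.6 FPKM in chow livers. Chow values were above all others. It fell by 0.88 ± 0.16 in vehicle against chow livers (adjusted p = 0.00261) and by 0.74 ± 0.16 in 326E against chow livers (adjusted p = 0.0109), with 0.15 ± 0.16 for 326E against vehicle (adjusted p = 0.604). With total assigned reads the values against chow are -0.50 for vehicle (adjusted p = 0.0212) and -0.39 for 326E (adjusted p = 0.0719).

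Its neighbour Slc6a13 (GAT2), a GABA and taurine carrier, had 39, 38.8 and 42.3 FPKM in 326E livers, 39.5, 37.2 and 44.7 FPKM in vehicle livers and 49.4, 53.2 and 47.1 FPKM in chow livers. Chow values lay above all others, by little. It fell by 0.30 ± 0.10 in vehicle against chow livers (adjusted p = 0.0398) and by 0.31 ± 0.10 in 326E against chow livers (adjusted p = 0.0486). Scaling to total assigned reads turns both to 0.09 and 0.05 (adjusted p = 0.431 and 0.701), and each call is lost without any 1 of 7 libraries. For vehicle these are 326E replicates 1 and 2, vehicle replicates 1 and 2 and the 3 chow replicates (-0.34 to -0.24, adjusted p of 0.0507 to 0.124), and for 326E the 3 326E replicates, vehicle replicate 1 and the 3 chow replicates (-0.35 to -0.26, adjusted p of 0.0578 to 0.142).

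Slc6a6, the taurine carrier, averaged 14.1 ± 1.64 FPKM in 326E livers, 17.7 ± 0.352 FPKM in vehicle livers and 17.1 ± 4.05 FPKM in chow livers and was not called. Slc6a9 (GlyT1), the glycine carrier (chr4:117834506-117875198), had 6.58, 7.46 and 5.61 FPKM in 326E livers, 4.57, 4.14 and 3.39 FPKM in vehicle livers and 3.77, 4.07 and 3.56 FPKM in chow livers. The 326E values were above all others, and vehicle and chow values overlapped. It rose in 326E against vehicle livers by 0.59 ± 0.12 (adjusted p = 0.0187) and against chow livers by 0.65 ± 0.12 (adjusted p = 0.00504). The call against vehicle is lost without 326E replicate 1 or 2 or vehicle replicate 3 (0.49 to 0.58, adjusted p of 0.0532 to 0.0694) and with total assigned reads (0.57, adjusted p = 0.0516). Of its exon bases, 27.8% overlap Ccdc24 on the other strand, which was at or under 0.0172 FPKM on average in each group.

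Slc6a16, an orphan of the family with no settled substrate (chr7:45241085-45273367), had 1.35, 1.23 and 1.21 FPKM in 326E livers, 0.465, 0.309 and 0.653 FPKM in vehicle livers and 0.589, 0.357 and 0.662 FPKM in chow livers. The 326E values lay above all others, and vehicle and chow values overlapped. It rose in 326E against vehicle livers by 0.62 ± 0.12 (adjusted p = 0.0143, a 2.65-fold ratio of means) and against chow livers by 0.56 ± 0.12 (adjusted p = 0.00908). Both calls stood when any 1 library was left out, and both were lost without the libraries with pancreas genes, at 0.60 against vehicle (adjusted p = 0.0612) and 0.60 against chow (adjusted p = 0.0525). With quantile normalization the rise against chow is 0.40 (adjusted p = 0.0508).

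Slc6a8, the creatine carrier (chrX:73673150-73682502), had 5.43, 3.96 and 2.79 FPKM in 326E livers, 7.16, 8.43 and 8.89 FPKM in vehicle livers and 2.13, 2.13 and 1.35 FPKM in chow livers. The 3 groups did not overlap, and 326E replicate 1 came nearest to the vehicle values. Slc6a8 rose in vehicle against chow livers by 1.68 ± 0.19 (adjusted p = 0.000202), the largest rise of any member on this scale, and by 0.80 ± 0.19 in 326E against chow livers (adjusted p = 0.016). It fell in 326E against vehicle livers by 0.88 ± 0.19 (adjusted p = 0.0223). That fall is lost without 326E replicate 2 or 3 or vehicle replicate 2 or 3 (-0.89 to -0.69, adjusted p of 0.0521 to 0.0704), and the rise against chow without 326E replicate 2 or chow replicate 3 (0.66 to 0.80, adjusted p of 0.051 to 0.0544). Without the libraries with pancreas genes the rise against chow is 0.47 (adjusted p = 0.102).

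The Slc36 family is named for proton-coupled carriers, and Slc36a1 moves proline, glycine and alanine, at the lysosome as well as at the plasma membrane. Slc36a1 (PAT1, chr11:55204350-55236330) had 5.63, 5.77 and 5.82 FPKM in 326E livers, 7.09, 7.05 and 6.75 FPKM in vehicle livers and 10.6, 8.79 and 10.5 FPKM in chow livers. The 3 groups did not overlap, with 326E livers lowest and chow livers highest. It fell by 0.46 ± 0.09 in vehicle against chow livers (adjusted p = 0.00321) and by 0.70 ± 0.09 in 326E against chow livers (adjusted p = 0.000775), and was not called for 326E against vehicle (-0.24 ± 0.09, adjusted p = 0.116). With total assigned reads the fall in vehicle livers is -0.10 (adjusted p = 0.465) and that in 326E livers -0.37 (adjusted p = 0.0245).

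Slc36a4 (PAT4) had 3.57, 4.13 and 4.76 FPKM in 326E livers, 5.99, 4.6 and 5.09 FPKM in vehicle livers and 3.73, 3 and 4.09 FPKM in chow livers. Vehicle values lay above chow values and overlapped with those of 326E livers. Slc36a4 rose in vehicle against chow livers by 0.44 ± 0.13 (adjusted p = 0.0265), a call lost with quantile normalization (0.36, adjusted p = 0.0529) and without vehicle replicate 1 or 3 or chow replicate 1 or 2 (0.34 to 0.46, adjusted p of 0.0539 to 0.0854). With total assigned reads it is 0.75 (adjusted p = 0.00102).

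Slc43 carriers let large neutral amino acids pass by facilitated diffusion. Slc43a2 (LAT4, chr11:75531694-75577575) had 4.39, 3.04 and 3.54 FPKM in 326E livers, 6.33, 6.09 and 5.73 FPKM in vehicle livers and 1.57, 1.35 and 1.55 FPKM in chow livers. The 3 groups did not overlap. Slc43a2 rose in vehicle against chow livers by 1.5 ± 0.11 (adjusted p = 2.22e-05, a 4.06-fold ratio of means), fell in 326E against vehicle livers by 0.61 ± 0.11 (adjusted p = 0.0125), and rose in 326E against chow livers by 0.89 ± 0.11 (adjusted p = 0.000755). The fall was called in 21 of 22 alternatives, and was not with a single vehicle library (adjusted p = 0.119, from a fit in which that library is assumed to vary like the other groups). Of its exon bases 9.18% overlap Gm45606 on the other strand, which was at 0.274, 0.478 and 0.163 FPKM in 326E, vehicle and chow livers.

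Slc43a3, which carries purine bases rather than amino acids, had 14.5, 16.5 and 13.4 FPKM in 326E livers, 15.7, 21.1 and 17.9 FPKM in vehicle livers and 11.9, 9.1 and 11.1 FPKM in chow livers. Both CDAA-HFD groups lay above chow and overlapped each other. It rose in vehicle against chow livers by 0.72 ± 0.14 (adjusted p = 0.00303, and 1.09 with total assigned reads). It rose in 326E against chow livers by 0.44 ± 0.14 (adjusted p = 0.0431), which is lost without 326E replicate 1 or 2, vehicle replicate 3 or any chow replicate (0.34 to 0.51, adjusted p of 0.0517 to 0.146). Slc43a1 (LAT3) averaged 1.62 ± 0.433 FPKM in 326E, 1.9 ± 0.313 FPKM in vehicle and 2.5 ± 0.801 FPKM in chow livers, and was not called, nor was Slc7a6os.

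**Figure D4:**
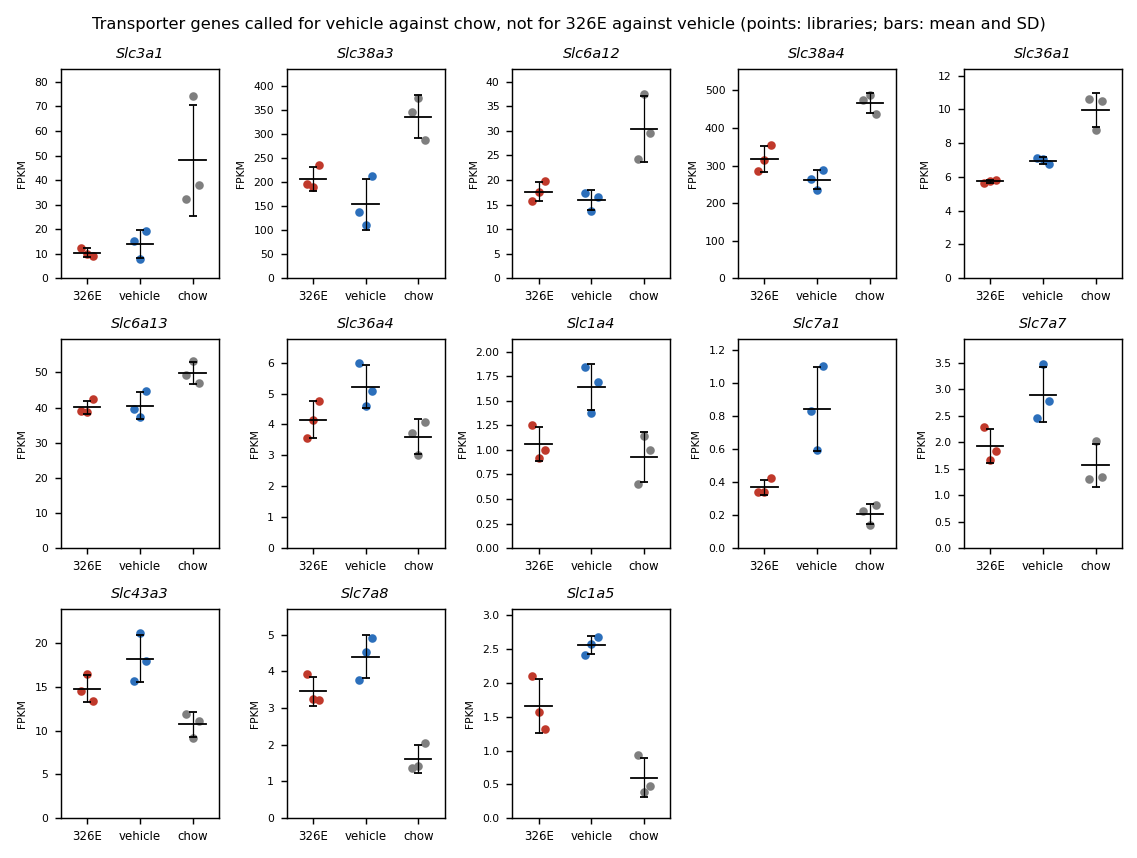
FPKM of the 13 transporter genes called for vehicle against chow but not for 326E against vehicle, in order of their fold change, with 1 point per library and bars for the mean and SD of 3 libraries. The first 6 panels, Slc3a1 to Slc6a13, have the chow points above the vehicle points, and the last 7 have them below.

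**Figure D5:**
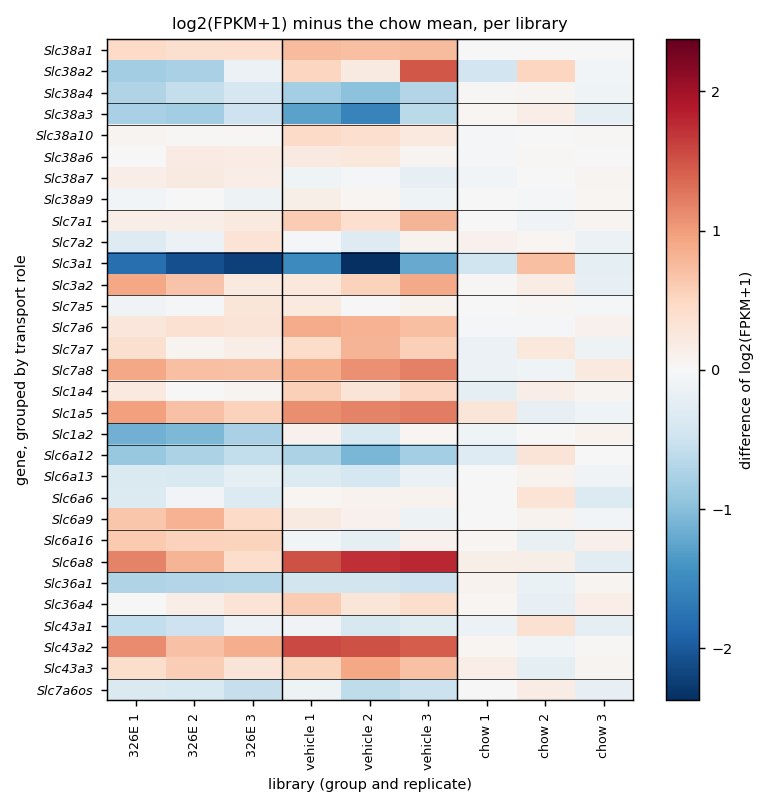
Difference of log2(FPKM+1) from the chow mean in every library for the 31 tested genes, grouped by role, blue below and red above. Slc3a1 is blue in all 6 CDAA-HFD libraries, Slc6a8 and Slc43a2 are redder in vehicle than in 326E libraries, and Slc1a2 is blue in the 3 326E libraries.

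The 32 genes under the filter were mainly carriers of brain, kidney and gut. No read was assigned in any library to 6 of them: Slc6a2 and Slc6a3, the noradrenaline and dopamine carriers, the glycine carrier Slc6a5, and Slc6a15, Slc6a18 and Slc7a12. A further 16 had at most 10 reads in each library. Of the kidney and gut carriers, 326E replicate 1 had 42 reads of Slc6a19, the main neutral amino acid carrier of those organs (0.475 FPKM), and 22 reads of Slc6a20a, a proline carrier. In the other 2 326E libraries both were at 0, the vehicle libraries had 6 and 10 reads in all, and the chow libraries 2 and 0. Leaving Slc38a5 in chow replicate 3 aside, the highest group means under the filter were those of Slc7a4, at 0.142 to 0.259 FPKM in 326E livers, 0.261 to 0.383 FPKM in vehicle livers and 0.241 to 0.465 FPKM in chow livers. Slc6a4, the serotonin carrier, had 37 reads in 326E livers, 9 in vehicle livers and 12 in chow livers. Slc1a1, a glutamate carrier, had 2, 23 and 5 reads in the same groups, too few to test.

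Other genes that handle amino acids are given as lists, chosen with earlier results of these data known, and read against the backgrounds above. Of 32 enzymes of the amino acids carried, 4 rose and 5 fell in 326E against vehicle livers (median -0.13), with the largest changes in Csad, an enzyme of taurine synthesis (2.33, limma adjusted p = 0.0101), and Asl of the urea cycle (-1.05, adjusted p = 0.00799). In vehicle against chow livers 2 rose and 20 fell (median -0.63), led by Cbs of the cysteine pathway (-2.08) and Gldc of glycine breakdown (-1.88). In 326E against chow livers 1 rose and 17 fell (median -0.66), led by the glutaminase Gls2 (-1.95) and Gldc (-1.56).

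Of 10 periportal hepatocyte genes, limma called 0 for 326E against vehicle (median -0.26), where 6 had an unadjusted p under 0.05 and voom called 3. In the other comparisons 1 rose and 6 fell in vehicle against chow livers (median -0.97, led by Cyp2f2 at -2.28 and Hal at -1.68), and 6 fell in 326E against chow livers (median -1.05, led by Hal at -2.23 and Gls2 at -1.95). Of 18 genes of the ATF4 response to amino acid shortage, 1 fell in 326E against vehicle livers, Atf3 (-3.20, adjusted p = 0.0119), which is also an immediate early gene. In vehicle against chow livers 3 rose and 2 fell (median 0.26), led by Atf3 (6.11) and the serine synthesis enzyme Psat1 (1.31), and in 326E against chow livers 2 rose, Atf3 (2.90) and Psat1 (1.54).

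Of 30 genes of amino acid sensing by mTORC1, 3 fell in 326E against vehicle livers (median -0.02), led by the GTPase Rragd (-0.95, adjusted p = 0.0223) and Fnip2 (-0.48). In vehicle against chow livers 5 rose and 5 fell (median -0.09), led by Rragd (1.95) and Wdr24 (-0.55), and in 326E against chow livers 2 rose and 2 fell, led by Rragd (1.01) and Wdr24 (-0.49). Of 9 tested carriers of amino acids, peptides and organic acids outside these families, 1 rose and 2 fell in 326E against vehicle livers. The largest changes were in Slc13a3, a sodium-coupled dicarboxylate carrier (-1.87, adjusted p = 0.00132), and Slc15a3, a peptide and histidine carrier of phagocytes (-0.75, adjusted p = 0.00985). In vehicle against chow livers 3 rose and 1 fell, with Slc15a3 (2.03) and Slc13a3 (1.15) in front, and in 326E against chow livers 3 rose and 1 fell, with Slc15a3 (1.28) and Slc13a3 (-0.72).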

How the data were processed

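Liver poly(A) RNA was sequenced in 9 libraries, 3 per group. Reads were aligned with HISAT2 to mm10 and counted with featureCounts, per the submitters' processing notes; versions, annotation release and strand setting are not given in the sources used here. The deposited values are FPKM made by the authors, with gene lengths. FPKM times length gave whole reads within 0.01 for 100% of values. The library sizes behind the deposited FPKM were 0.828 to 0.86 of the assigned reads in chow libraries and 1.007 to 1.192 in CDAA-HFD libraries. The chi-square of replicate reads over its degrees of freedom was 20.5 to 79.5, above counting error. The members, lists and tests were chosen with earlier results of these data known.

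Genes reaching 0.5 FPKM in 3 or more libraries entered 1 fit of log2(FPKM+1) over all 9 libraries in limma 3.58.1 (R 4.3.3), with the variance allowed to follow the level and 6 degrees of freedom left. P-values were adjusted by Benjamini-Hochberg over 13737 genes per comparison. Members called anywhere are given in every library, the others by group means, ranges or counts, and of each other list the 2 called genes with the largest change per comparison are named.

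Alternatives were pseudocounts of 0.1 and 5, no filter (genes with a read), a mean of at least 1 FPKM, scaling to total assigned reads, quantile normalization, no variance trend, the libraries of a comparison alone, voom on whole reads, a replicate block, protein-coding genes alone and each library left out. Leaving out both libraries with pancreas genes, and all vehicle libraries but replicate 2, were added after the data were seen. Simulated data served to test the fit. Promoters are from RefSeq (GRCm38.p6). Exon overlaps are from GENCODE vM21, which holds all 63 genes, 61 with the deposited coordinates. Python 3.11.15, pandas 2.3.3, numpy 2.4.6 and matplotlib 3.10.9 made the tables and plots.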

Additional observations from a re-analysis of the deposited data

How the results depend on the processing

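Of the 43 calls of members, 17 were kept under every alternative run, 12 of them for vehicle against chow, 5 for 326E against chow and 0 for 326E against vehicle, where Slc1a2 and Slc43a2 were lost only with 1 vehicle library. For 326E against vehicle the count of 10 members became 5 with a pseudocount of 0.1, 6 with the libraries of the comparison alone, 4 to 7 when 1 library was left out, 3 without the libraries with pancreas genes and 0 with vehicle replicate 2 as the only vehicle library. That last fit assumes the lone library to vary like the other groups; 11 members had an unadjusted p under 0.05 in limma, and calls over all genes fell to 322 (2.34%), so the 0 says little of the members. In these the cause was not tested beyond the fewer samples that the last ones hold. The vehicle against chow count of 18 stayed at 14 to 20 in all alternatives. The 326E against chow count of 15 stayed at 11 to 17, except for 5 without the libraries with pancreas genes. Total assigned reads turned Slc6a13 to 0.09 for vehicle against chow and 0.05 for 326E against chow, and quantile normalization turned Slc38a4 to 0.07 for 326E against chow; the cause was not tested. Under the replicate block, 7, 17 and 12 members were called in the 3 comparisons. Libraries with the same number in different groups correlated in their deviations from the group means at -0.244 to 0.024, and those with different numbers at -0.181 to 0.193. Libraries with the same number thus did not deviate together, although such correlations cannot exclude that the numbers mark something shared. Over all genes, 1574 were called for 326E against vehicle. The count was 1295 with a pseudocount of 0.1 and 1179 with the libraries of the comparison alone. It was 1037 with the block and 1030 without a filter. Leaving out 1 library gave 659 to 1623, and leaving out the libraries with pancreas genes gave 805. For vehicle against chow, 5721 of all genes were called, and 4636 to 6035 in the alternatives other than that with 1 vehicle library. For 326E against chow, 3688 were called, and 2401 to 4547 in those alternatives, except for 1770 without the libraries with pancreas genes.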
